A study of Mus musculus with 12 samples.

Results

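Hipk2, Hipk3, Asph and Nrip1 are genes whose circular RNAs (circRNAs) have often been described in human and mouse cells. All circRNAs for which the deposited tables name exactly 1 of these 4 genes as host were taken, which gave 13 circRNAs of 13474 listed, 12 of them with reads. Back-spliced junction reads had been counted in 4 mouse cell lines with 3 libraries each: 4T1, a breast cancer line, Eph4-ev, a breast epithelial line, B16F10, a melanoma line, and Melan-a, a melanocyte line. All libraries were made from total RNA after digestion with RNase R, which degrades RNA with free ends. The labels name no further treatment or edited allele. What the suffix of Eph4-ev stands for was not looked into, so that line may not be an unmodified one. The series asks for circRNAs of tumour cells, so 4T1 was compared with Eph4-ev and B16F10 with Melan-a. Each lineage had 1 line of each kind, so tumour state and other differences between the lines cannot be told apart. The labels do not say whether the libraries of a line came from separate cultures, so the p-values measure only the spread between these libraries.

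A circRNA forms when the spliceosome joins the end of an exon to the start of the same or an earlier exon instead of the next one, which closes the RNA into a ring without free ends. Such rings resist exonucleases, and a read that crosses the backward join tells the ring from the linear mRNA of its gene. Long introns with inverted repeats on both sides of an exon are known to favour this reaction, and the exon after the first exon of a gene is a frequent start. Hipk2 and Hipk3 encode homeodomain-interacting protein kinases, nuclear serine/threonine kinases that act on transcription factors. HIPK2 is known for its part in the p53 response, and the circRNA of HIPK3 exon 2 is one of the most studied human circRNAs, reported to bind several microRNAs. Asph encodes aspartate beta-hydroxylase of the endoplasmic reticulum, and shorter products of the same gene, junctin and junctate, take part in calcium handling. Nrip1 encodes RIP140, a corepressor that binds nuclear receptors such as the oestrogen receptor.

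The 4 genes lie on the minus strand of mm10, and the exon numbers and sequences used here are from GENCODE M21. The counted reads show only the ends of a circle. Lengths, exon numbers and sequences of circles here and below assume that all exons of the chosen transcript between those ends are kept. Hipk2 (ENSMUSG00000061436.15, chr6:38694390-38876165) gave 1 circRNA, made of exon 2 alone (chr6:38818230-38819313, 1084 bases, all coding). Hipk3 (ENSMUSG00000027177.14, chr2:104426481-104494446) gave the matching circRNA of exon 2 (chr2:104470749-104471847, 1099 bases) and a minor one of exons 9 to 13 (chr2:104433168-104435057, 844 bases). Nrip1 (ENSMUSG00000048490.14, chr16:76287400-76373827) gave 1 circRNA of exons 2 and 3 (chr16:76330746-76352546, 194 bases), with 0 coding bases, since both exons lie in the 5′ UTR. Asph (ENSMUSG00000028207.18, chr4:9448069-9669344) gave 9 circRNAs, of which the most read joined exons 2 and 3 (chr4:9635901-9639347, 219 bases, all coding). The other 8 Asph circRNAs lay within exons 14 to 23 of the 24-exon transcript Asph-202, in the 3′ part of the gene, which encodes the C-terminal region of the full-length hydroxylase.

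The joins themselves are printed here, because they are what the reads were counted on and because the joins of Hipk2 and Hipk3 are close to each other in sequence. Each line gives 30 bases, 5′ to 3′: the last 15 bases before the join in lower case and the first 15 bases after it in capitals.
Hipk2 exon 2: atccagatactaccgGTATGGCCTCACATG
Hipk3 exon 2: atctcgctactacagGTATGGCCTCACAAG
Hipk1 exon 2: atcacgctactacagGTATGGCCTCACAGC
Asph exons 2-3: ccaaagttttattagAGGCAAAGCACGGAG
Asph exons 16-20: acagagctagtgaagTGTGAAGATGACTTG
Asph exons 16-17: aaggtttacgaagagTGTGAAGATGACTTG
Asph exons 18-20: acagagctagtgaagGTGCTAAATGTGACA
Nrip1 exons 2-3: aggctgaggcagacgGCGTGGACTGTGAGC
None of the 30-base joins of Hipk2, Hipk3, Asph and Nrip1 was found in a linear transcript of the annotation (0 matches each). The Hipk1 join was not searched for. The Hipk2 and Hipk3 joins were identical at 25 of 30 bases and at 14 of the first 15 bases after the join. Over the whole exon the 2 kinase genes were 66.3% identical (753 of 1136 aligned columns). Hipk1, the close relative with an exon 2 of 1078 bases (chr3:103777222-103778299), had a join that matched Hipk3 at 27 of 30 bases and Hipk2 at 24 of 30. Its exon 2 circRNA held only 10 reads over the 12 libraries, against 210 for Hipk2 and 1309 for Hipk3 exon 2. The tables name Hipk1 together with an overlapping gene for this row, and reads of overlapping genes may not be told apart. The 3 Asph joins of exons 16 to 20 share their parts: exons 16-20 and 16-17 have the same bases after the join, and exons 16-20 and 18-20 the same bases before it.

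The exon 2 circles of Hipk2 and Hipk3 both hold an annotated start codon just after the join, the ATG that begins at base 3 of the circle and can be read in the capitals above. For Hipk2 this is the start of transcript Hipk2-205, while Hipk2-206 starts in exon 1. From this ATG the frame ran through 360 full codons in Hipk2 and 365 in Hipk3 before it crossed the join. It then met a stop after 20 further codons in Hipk2 (380 in all) and 22 in Hipk3 (387 in all). The Asph circle of exons 2 and 3 is printed whole because its length of 219 bases is a multiple of 3, so that a frame returns to itself at the join; the capitals mark the start codon of transcripts Asph-211 and Asph-215, at base 72.
Asph exons 2-3 circle: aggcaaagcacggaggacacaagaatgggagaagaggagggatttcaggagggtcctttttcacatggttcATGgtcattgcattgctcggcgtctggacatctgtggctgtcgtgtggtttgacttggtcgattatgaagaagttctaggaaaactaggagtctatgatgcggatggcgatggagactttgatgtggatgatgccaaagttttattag
From this ATG 49 full codons precede the join and no stop was met in the frame. These are readings of annotated sequence with all exons between the ends kept. The inner part of the circles was not observed, and translation was not measured.

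The main circles differed in size, and all had flanking introns longer than the median. Of the 12830 circRNAs with reads, 12565 (97.9%) had both ends at exon ends of 1 transcript, with a median of 3 exons and 481 bases. The exon 2 circles were longer than most: 87.3% of all circles were shorter than that of Hipk2 and 87.7% shorter than that of Hipk3. They consist of a single exon, as did 4.32% of all circRNAs (543), and 83.6% of those single-exon circles were shorter than that of Hipk2. The Asph and Nrip1 circles were among the shortest, with 3.70% and 1.80% of all circles shorter. The introns before and after Hipk2 exon 2 measured 56485 and 70232 bases, longer than those of 94.3% and 97.7% of circRNAs. Those of Hipk3 exon 2 measured 22100 and 24113 bases, longer than 78.1% and 87.5%. Those of Asph exons 2-3 measured 29433 and 24962 bases (84.8% and 88.1%), and those of Nrip1 exons 2-3 21223 and 35730 (77.1% and 92.5%). The medians over all circRNAs were 7725 bases before and 5554 bases after the circle. All 4 main circles began at exon 2, as did 33.0% of all circRNAs (4152), and their introns were not compared with those of that group alone. The minor Hipk3 circle of exons 9 to 13 differed, with introns of 1939 and 1780 bases, longer than only 16.9% and 18.3% of circRNAs.

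**Figure D1:**
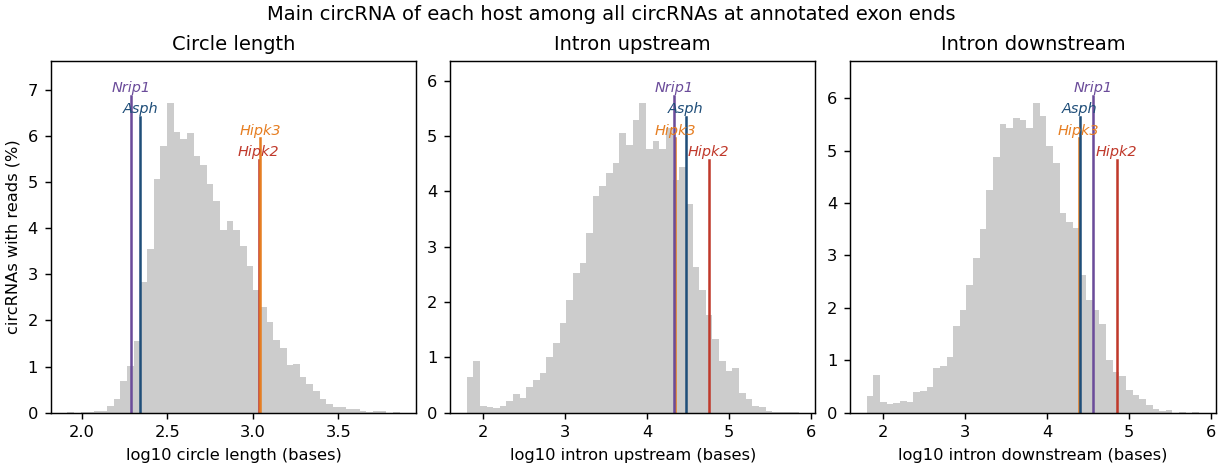
The most read circRNA of each host (coloured lines) among all circRNAs whose ends lie at annotated exon ends (grey histograms, percent of circRNAs), for circle length and the lengths of the introns before and after the circle, in bases on a log10 axis. The circles of Hipk2 and Hipk3 lie to the right of the bulk and those of Asph and Nrip1 to the left, and all 4 have both introns above the median of all circRNAs.

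Depth was low: a library held 15572 to 44625 junction reads in 4T1, 50648 to 56649 in Eph4-ev, 16697 to 20011 in B16F10 and 25072 to 33557 in Melan-a. Levels are given as junction reads scaled to the same library total (RPM, as deposited), so a single read stood for 17.7 to 64.2 RPM, and a count of 0 in a library allows up to 53.0 to 193 RPM (3 reads). A circle has 1 join whatever its length, so levels are per join and were not divided by length, and they say nothing of the amount of circRNA per cell. Fewer expressing cells and less circRNA per cell cannot be told apart. The 4 hosts together took 0.515 to 0.520% of the junction reads in 4T1, 0.721 to 0.776% in Eph4-ev, 0.886 to 1.07% in B16F10 and 0.650 to 0.793% in Melan-a. Among the summed circRNAs of marker genes, 5 of 12 epithelial genes (Cdh1, Epcam, Esrp1, Grhl2 and Ocln) had reads in 4T1 and in Eph4-ev, at 1349 to 1804 and 1481 to 1836 RPM. In B16F10 0 of them had reads, and in Melan-a 1 (Esrp1, at most 39.9 RPM). Of 13 melanocyte genes, 8 had reads in B16F10 (10978 to 12743 RPM) and 9 in Melan-a (5525 to 9476 RPM), against 0 in 4T1 and 1 (Mitf, at most 88.3 RPM) in Eph4-ev. No immune gene of 6 had reads in any line, and of 8 fibroblast genes 1 had reads in each of Eph4-ev (Zeb1, 118 to 177 RPM), B16F10 (Vim, 99.9 to 119.8 RPM) and Melan-a (Vim, up to 199 RPM). A marker gene without circRNA reads says nothing of its mRNA. The part of the marker genes in the results was not tested.

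Hipk3 gave the most reads of the 4 hosts in 3 of the lines, and every library of the melanocyte lineage lay above every library of the mammary lineage. Its summed reads were 40, 48 and 134 for 4T1 replicates 1 to 3 and 136, 142 and 113 for those of Eph4-ev. They were 128, 122 and 86 in B16F10 and 94, 158 and 113 in Melan-a. Scaled to depth, B16F10 stood at 6249 ± 1033 RPM, Melan-a at 4316 ± 503, 4T1 at 2759 ± 222 and Eph4-ev at 2409 ± 336 (SD, n = 3 each). In this order the libraries of neighbouring lines did not overlap, except for 4T1 and Eph4-ev at the bottom. The tables of the 2 lineages were made separately, so levels across them are a description. The exon 2 circRNA ranked 10th in B16F10, 17th in Melan-a, 24th in 4T1 and 43rd in Eph4-ev by mean RPM, among 6569, 6533, 5882 and 8099 circRNAs with reads. The circRNA of exons 9 to 13 had 3 and 2 reads in B16F10 replicates 2 and 3 and none in the other libraries of that lineage. It is not listed for the mammary lineage, which was taken as 0 reads. Its B16F10 level was 2.60-fold above a floor of 3 reads over the Melan-a line. That ratio rests on 5 reads and leaves out their counting error. Replicate 1 of B16F10 held none, so the groups overlapped, and the row did not pass the filter on low counts.

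Hipk3 passed the test in neither lineage. The log2 fold of the host sum, tumour line minus non-tumour line, was 0.07 in 4T1 against Eph4-ev (SE 0.22, 95% interval -0.41 to 0.55, edgeR adjusted p = 0.868), and its sign was negative with no filter on low counts and without 4T1 replicate 3 or Eph4-ev replicate 3. In B16F10 against Melan-a the log2 fold was 0.44 (SE 0.24, 95% interval -0.08 to 0.95, edgeR adjusted p = 0.331). The B16F10 libraries, at 5151 to 7201 RPM, all lay above those of Melan-a, at 3749 to 4708 RPM, so the groups did not overlap although the test was not passed.

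**Figure D2:**
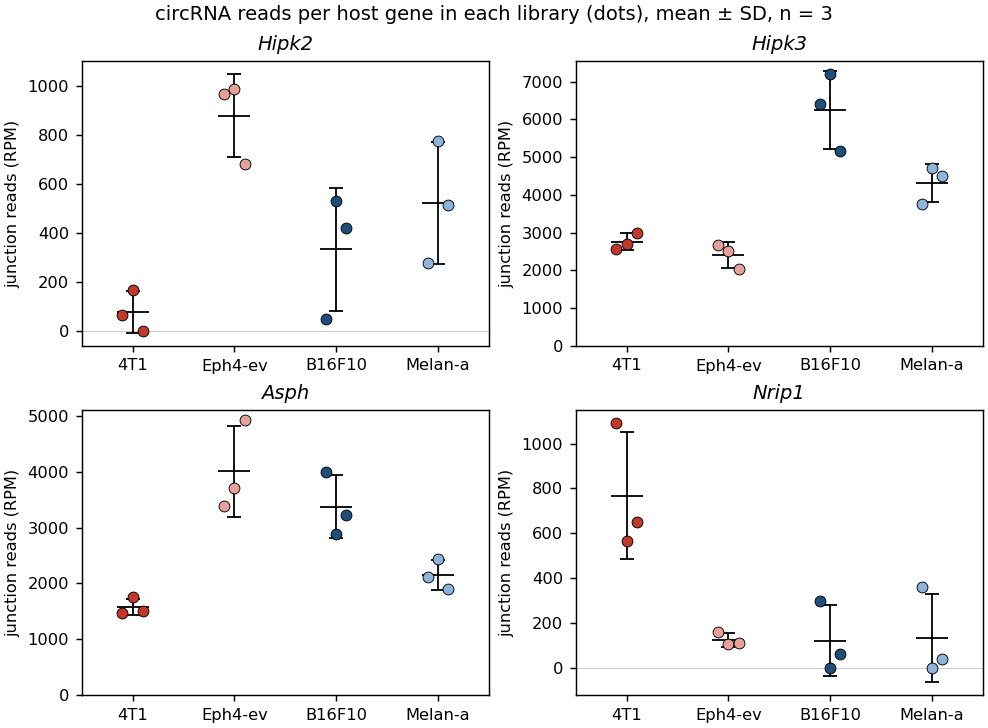
Summed junction reads of each host gene in each library, in RPM (dots; bars, mean ± SD, n = 3 per line). Hipk3 is highest in B16F10, Asph is lowest in 4T1 (1477 to 1748 RPM), Hipk2 is near 0 in 4T1 and Nrip1 stands highest in 4T1 (564 to 1092 RPM).

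Hipk2 was 16.1-fold lower in 4T1 than in Eph4-ev, although its circle is built like that of Hipk3. The reads of its exon 2 circRNA were 1, 3 and 0 in the 4T1 replicates and 49, 56 and 38 in those of Eph4-ev. The 4T1 library with 0 reads was the deepest of that line. The 4T1 level was 77.8 ± 85.4 RPM and the Eph4-ev level 880.0 ± 170.0 RPM (SD, n = 3), and the groups did not overlap. The log2 fold of the host sum was -4.01 (SE 0.78, 95% interval -5.67 to -2.35, edgeR adjusted p = 0.00263). Per circRNA it was -4.09 (SE 0.79, edgeR adjusted p = 0.00828). The host call was lost without Eph4-ev replicate 2 (log2 fold -3.87, adjusted p = 0.0687; adjusted p over all alternatives 6.82e-07 to 0.0687), and the log2 fold ran from -5.58 without 4T1 replicate 2 to -3.10 without 4T1 replicate 3. The circRNA ranked 177th in Eph4-ev and 2527th in 4T1.

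In the melanocyte lineage the B16F10 replicates held 1, 9 and 7 Hipk2 reads and the Melan-a replicates 7, 26 and 13. B16F10 stood at 333 ± 252 RPM and Melan-a at 524 ± 248 (SD, n = 3). The groups overlapped, and both lay between 4T1 and Eph4-ev, with overlap between all neighbours in that order. The log2 fold, B16F10 minus Melan-a, was -0.80 (SE 0.68, 95% interval -2.28 to 0.68, edgeR adjusted p = 0.555), so a difference was not detectable at this depth.

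Asph circRNAs were lower in 4T1 than in Eph4-ev and, in RPM, higher in every B16F10 library than in any of Melan-a. The host sums of the 4T1 replicates were 23, 31 and 67 reads and those of the Eph4-ev replicates 172, 210 and 274. In the melanocyte lineage they were 80, 49 and 54 in B16F10 and 53, 82 and 48 in Melan-a. Eph4-ev stood at 4012 ± 812 RPM, B16F10 at 3375 ± 566, Melan-a at 2155 ± 270 and 4T1 at 1575 ± 150 (SD, n = 3 each). Eph4-ev and B16F10 overlapped, and the later steps in this order did not. In 4T1 against Eph4-ev the log2 fold of the host sum was -1.49 (SE 0.23, 95% interval -1.98 to -0.998, edgeR adjusted p = 0.000461), or 2.80-fold lower. In B16F10 against Melan-a it was 0.55 (SE 0.25, 95% interval -0.0015 to 1.10, edgeR adjusted p = 0.238), which did not pass although the groups did not overlap.

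Asph was also the host whose log2 fold differed between the lineages. The interaction over all 12 libraries, mammary fold minus melanocyte fold, was -2.05 (SE 0.37, 95% interval -2.82 to -1.29, edgeR adjusted p = 0.000418). It passed for 1 of the 4 hosts, against 10% of the 1325 hosts tested. For Hipk2 the difference was -3.20 (SE 1.12, 95% interval -5.51 to -0.90, edgeR adjusted p = 0.0681). It passed when any of 3 single libraries was left out: 4T1 replicate 2 (-4.80, adjusted p = 0.016), B16F10 replicate 1 (-3.87, 0.0207) or Melan-a replicate 2 (-3.75, 0.0259), with adjusted p from 0.016 to 0.197 over all alternatives. For Hipk3 it was -0.40 (SE 0.33, 95% interval -1.08 to 0.29, edgeR adjusted p = 0.507) and for Nrip1 2.53 (SE 1.41, 95% interval -0.36 to 5.41, edgeR adjusted p = 0.271).

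**Figure D3:**
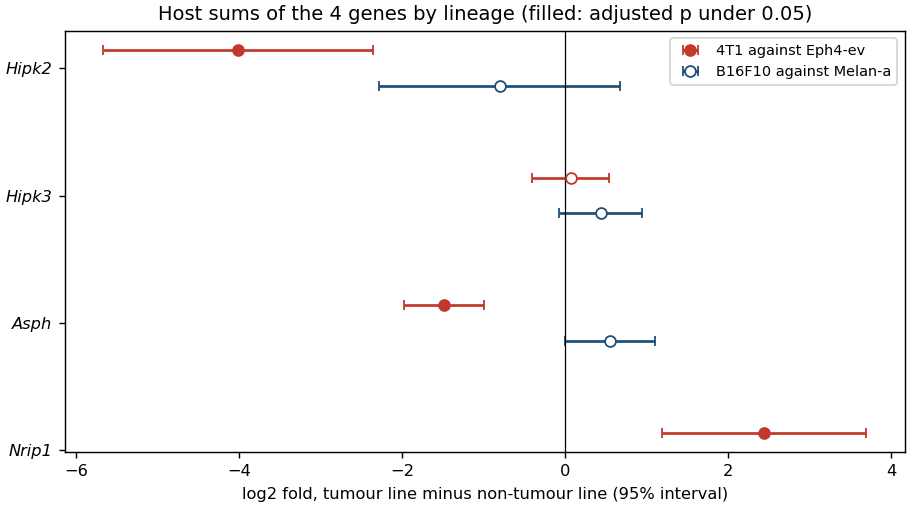
Log2 fold of the host sums, tumour line minus non-tumour line, with 95% intervals (filled dots, adjusted p under 0.05; open dots, not passed). Hipk2, Asph and Nrip1 were called in the mammary lineage and none in the melanocyte lineage, where Nrip1 had too few reads for the test.

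The 2 ends of the Asph gene were read unequally. Exons 2-3, whose ends are shared by 15 of the 20 annotated Asph transcripts, had 16, 26 and 50 reads in 4T1, 132, 168 and 212 in Eph4-ev, 74, 42 and 53 in B16F10 and 47, 73 and 45 in Melan-a. This circRNA stood at 3129 ± 622 RPM in Eph4-ev, 3117 ± 612 in B16F10, 1946 ± 203 in Melan-a and 1205 ± 231 in 4T1 (SD, n = 3). It was called lower in 4T1 (log2 fold -1.61, SE 0.25, edgeR adjusted p = 0.00239) and was not called in B16F10 (log2 fold 0.61, SE 0.29, edgeR adjusted p = 0.210). The 4T1 libraries had 76.0 ± 7.25% of their Asph reads on it and the Eph4-ev libraries 78.0 ± 1.73% (SD, n = 3; exact two-sided permutation p = 0.7). The B16F10 libraries had 92.1 ± 6.23% and the Melan-a libraries 90.5 ± 2.83% (SD, n = 3; exact two-sided permutation p = 0.7). The smallest p that 3 against 3 libraries can give is 0.1.

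The 8 circRNAs of exons 14 to 23, whose ends are held by 3 of the 20 transcripts each, together stood at 882 ± 204 RPM in Eph4-ev, above every library of the other lines. They stood at 371 ± 84.3 RPM in 4T1, 209 ± 79.0 in Melan-a and 258 ± 180 in B16F10 (SD, n = 3), and B16F10 overlapped 4T1 and Melan-a. The 4T1 libraries lay above those of Melan-a by a narrow margin. The closest were 4T1 replicate 2 at 282 RPM (5 reads) and Melan-a replicate 2 at 268 RPM (9 reads). A single read stood for 56.4 RPM in that 4T1 library. The circRNA of exons 16-17 had 9, 24 and 23 reads in the Eph4-ev replicates (338 ± 139 RPM, SD, n = 3) and 0 in all 9 libraries of the other lines. It was called lower in 4T1 (edgeR adjusted p = 0.0148), with an Eph4-ev level 8.93-fold above a floor of 3 reads over the 4T1 line. Its call was lost without Eph4-ev replicate 2 (adjusted p = 0.0922) or 3 (0.0589), with 0.000934 to 0.0922 over all alternatives, and with a minimum count of 10 it could not be fitted. The circRNA of exons 16-20 contains the same start and was read in every line: 7, 3 and 0 reads in 4T1, 16, 9 and 18 in Eph4-ev, 4, 4 and 1 in B16F10 and 3, 4 and 3 in Melan-a. Its log2 fold in 4T1 was -0.85 (SE 1.03, edgeR adjusted p = 0.635). The circRNA of exons 18-20, the remainder of that stretch, gave 0, 2 and 12 reads for 4T1 and 9, 0 and 9 for Eph4-ev, and 4T1 differed from Eph4-ev by 0.18 on the log2 scale (SE 1.22, edgeR adjusted p = 0.947). For B16F10 it gave 2, 3 and 0 reads and for Melan-a 3, 0 and 0.

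The other Asph circRNAs were sparse. Exons 16-23 had 5 reads in 1 library of 4T1 and 4 and 10 in 2 libraries of Eph4-ev. Exons 14-17 had 4 and 5 reads in 2 libraries of Eph4-ev and 5 in 1 of Melan-a. Exons 21-23 had 1 and 2 reads in 2 Eph4-ev libraries, exons 14-21 a single read in Eph4-ev, and exons 14-20, listed in the melanocyte table alone, none. The 9 Asph circRNAs used 5 different first exons and 5 different last exons. A 4T1 library held 2, 3 and 3 of them and an Eph4-ev library 7, 5 and 6 (exact two-sided permutation p = 0.1, n = 3). Reduced to the depth of the shallowest library (15572 reads), the expected numbers were 2.62 in 4T1 and 5.06 in Eph4-ev on average (exact permutation p = 0.1), with no overlap. B16F10 and Melan-a libraries held 3, 3 and 2 each.

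**Figure D4:**
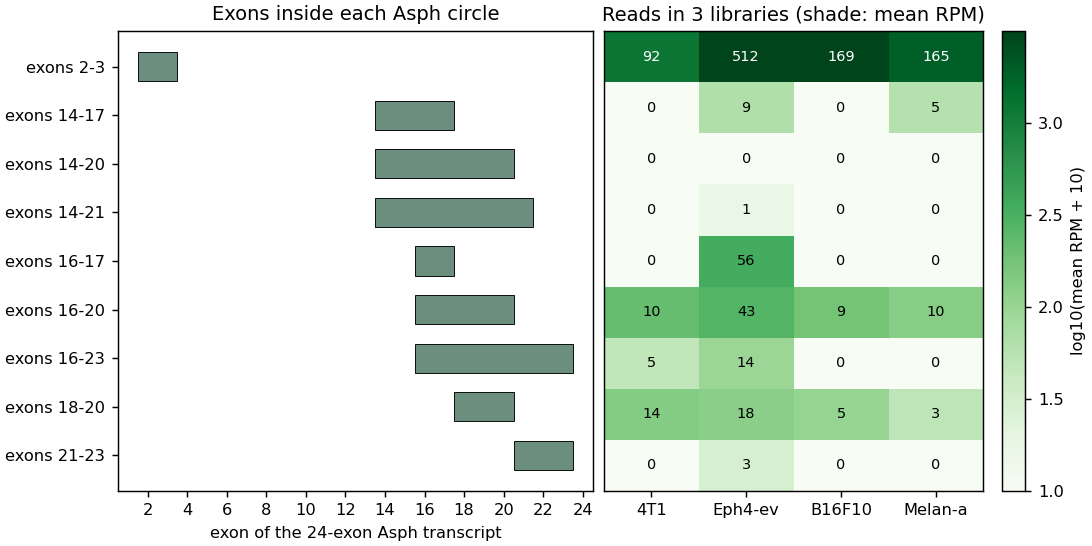
Left, the exons of the 24-exon Asph transcript that each Asph circRNA spans; right, its reads summed over the 3 libraries of each line (numbers) with shading by mean RPM (log10 of RPM + 10). Exons 2-3 lead in every line, and exons 16-17 have 56 reads in Eph4-ev and 0 in the other 3 lines.

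Nrip1 was the host called higher in the tumour line. Its circRNA of exons 2 and 3 had 17, 10 and 29 reads in the 4T1 replicates and 8, 6 and 6 in those of Eph4-ev, which are deeper. The 4T1 level was 768 ± 283 RPM and the Eph4-ev level 124 ± 29.5 RPM (SD, n = 3), without overlap. The log2 fold of the host sum was 2.44 (SE 0.59, 95% interval 1.19 to 3.70, edgeR adjusted p = 0.0105), or 5.44-fold. Per circRNA it was 2.36 (SE 0.55, edgeR adjusted p = 0.0175). The host call was lost without Eph4-ev replicate 2 (adjusted p = 0.0837) or 3 (0.0512), with 0.00376 to 0.0837 over all alternatives. The call per circRNA was lost without those libraries (0.0923 and 0.0773), without 4T1 replicate 1 (0.0688) and with no filter on low counts (0.0769), with 0.00648 to 0.0923 over all alternatives. The log2 fold stayed between 2.01 and 2.61 at both levels.

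In the melanocyte lineage most Nrip1 reads came from 1 library of each line. The B16F10 libraries held 6, 0 and 1 reads and those of Melan-a 9, 0 and 1, or 119.9 ± 159 and 133 ± 197 RPM (SD, n = 3). These overlapped each other and the Eph4-ev libraries, and 4T1 stood above all of them. The row did not pass the filter on low counts. The pooled ratio of Melan-a to B16F10 was 0.915, with a 95% exact counting interval of 0.314 to 2.83 that does not cover the spread between libraries. It lies below 1 although the mean RPM of Melan-a is the higher, so the 2 measures point in opposite directions. The difference between lineages, 2.53, did not pass, and single libraries moved it both ways. Without Melan-a replicate 1 it was -0.17 (edgeR adjusted p = 0.998) and without B16F10 replicate 1 it was 4.38 (0.137). The adjusted p ran from 0.123 to 0.998 over all alternatives.

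Counted over the members, 7 of the 11 circRNAs in the mammary table passed the filter on low counts, and 1 was called higher and 3 lower in 4T1 (edgeR adjusted p under 0.05). Over all 1869 circRNAs tested there, 5.99% were called higher and 11.4% lower. Of the 4 host sums 1 was called higher and 2 lower, against 6.86% and 10.6% of 1515 hosts. Among the lower ones, Asph exons 16-17 had 0 reads in 4T1. Hipk2 exon 2, which is also the Hipk2 host sum, had 1, 3 and 0. Both passed the filter through Eph4-ev, where they are high, so their direction adds nothing to these counts. DESeq2, run after the same filter, also called 4 circRNAs and 3 hosts of the members. It called 304 of all 1869 circRNAs and 239 of all 1515 hosts. For the melanocyte lineage, 3 of the 12 listed circRNAs and 3 of the 4 host sums were tested. With edgeR 0 were called at either level, against 10.9% of 874 circRNAs and 7.13% of 898 hosts called in either direction. DESeq2 called 0 of them, against 67 of all 874 circRNAs and 54 of all 898 hosts. An unadjusted edgeR p under 0.05 was reached by 0 of them, and the share over all rows is not given for that threshold.

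Genes with related roles were compared at the level of host sums. Of 7 other kinases of the HIPK and DYRK group, which share the kinase domain type of Hipk2 and Hipk3, Dyrk1a alone could be tested. Its host sum differed by -0.19 on the log2 scale in 4T1 (SE 0.67, edgeR adjusted p = 0.885) and by 0.46 in B16F10 (SE 0.94, edgeR adjusted p = 0.840). Hipk1 was read mainly as a circle of exons 2 and 3, with 1, 0 and 3 reads for the 4T1 and 15, 20 and 9 for the Eph4-ev replicates. That circle is not in the host sums because its row names 2 genes. A circle of exons 11 to 15 with Hipk1 as its only host had 3 reads, all in Melan-a replicate 1. Of 13 nuclear receptor coregulators, the wider class that Nrip1 belongs to, 5 were tested in the melanocyte lineage. edgeR called 0, against 7.13% of all hosts, both at adjusted p under 0.05. An unadjusted edgeR p under 0.05 was reached by 1 (Ncoa2, named after its value was seen). The share of all hosts is not given for that threshold, so that count has no comparison. DESeq2 called 0 of the 5, against 54 of all 898 hosts. The median log2 fold of the 5 in B16F10 was -0.39, beside -0.00 for all hosts tested. Of 13 hydroxylases of the enzyme class of Asph, 2 had reads in the mammary and 1 in the melanocyte lineage, and none could be tested.

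The last list holds 30 other hosts of well described circRNAs. It was chosen with earlier results of these data known, so its counts of calls are a description and not a test. In the mammary lineage 22 were tested. Nfix (log2 fold 0.41) and Qk (2.68) were called higher in 4T1, and Zfp609 (-2.97) and Elf2 (-0.78) lower, or 4 of 22, against 6.86% higher and 10.6% lower over all hosts. Their median log2 fold was 0.26, beside -0.09 for all hosts. In the melanocyte lineage 19 were tested. Fbxw7 (1.23) and Tulp4 (1.93) were called higher in B16F10, and Zfp609 (-3.77) and Pvt1 (-0.93) lower, or 4 of 19, against 7.13% of all hosts in either direction. Their median log2 fold was -0.25, beside -0.00 for all hosts. Zfp609 was thus called lower in both tumour lines, which none of the 4 hosts was.

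The hosts whose levels ran most like those of the 4 genes over the 12 libraries were found by Pearson's r of log2(RPM + 50), among hosts with a mean of at least 10 reads in every line. The libraries of a line share their cells and their range of depth, so r is a description. Hipk3 ran with Eefsec (0.92), Zranb1 (0.92) and Trip6 (0.91), all highest in B16F10. Asph ran with Erbb2ip (0.86), Pphln1 (0.85) and Acaca (0.79), all highest in Eph4-ev. Hipk2 ran with Vapa (0.72), Erbb2ip (0.72) and Sipa1l1 (0.68), all highest in Eph4-ev and lowest in 4T1. Nrip1 ran with Med13l (0.76), Samd4 (0.75) and Ptk2 (0.74), all highest in 4T1. Hipk2 and Nrip1 themselves do not reach that minimum of reads in every line.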

How the data were processed

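The deposited count columns hold whole reads across each back-splice junction, 1 column per library, and the deposited RPM columns scale each count by its column total, per the file headers and their values. Per the labels' protocols, the callers were CIRI2, working from BWA-MEM, and CIRCexplorer2, working from TopHat with TopHat-Fusion. The submitters' processing notes name mm10, the assembly of GENCODE M21. How the callers' reads were combined is not given in the sources used here. The labels mention no molecular identifiers, so intervals and floors cover counting error only, and a floor covers that of the line without reads alone.

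Counts were tested with edgeR 4.0.16 in R 4.3.3 by the quasi-likelihood F test with TMM factors over each whole table, after filterByExpr at min.count 5 and min.total.count 10, with Benjamini-Hochberg adjustment over all rows tested and a threshold of 0.05. Host values are counts summed over rows with a single host. Of the 13 circRNAs of the members, 10 were listed for both lineages. A circRNA not listed for a lineage was taken as 0 reads there. Intervals for log2 folds use the t quantile of the fit's degrees of freedom. A line at 0 was compared through a floor of 3 reads over the line. The interaction was fitted on hosts in both tables over all 12 libraries. Shares and numbers of circRNAs were compared with exact permutation tests over libraries. Alternatives were RLE factors, no factors, DESeq2 1.42.0, filtering at min.count 10 or not at all, a replicate block, rows with several hosts, host sums without their most read circRNA and leaving out each library. The scripts were tested on simulated counts.

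Counts of the 12 pairs of libraries within a line differed by more than sampling noise in every case (chi-square per degree of freedom 1.69 to 5.06), so each was kept as a library of its own. Described with values in every library are the members with a mean of at least 10 reads in a line, those called, and the most read of each host. Members and gene lists were chosen with earlier results of these data known. A search for microRNA sites in the circles and the coregulator list in the mammary lineage are not reported here.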

Additional observations from a re-analysis of the deposited data

Results flagged for a closer look

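The Asph host sum lay on opposite sides in the 2 lineages. All 3 4T1 libraries lay below all 3 Eph4-ev libraries, and all 3 B16F10 libraries lay above all 3 Melan-a libraries. The difference between the log2 folds, mammary minus melanocyte, was -2.05 (edgeR adjusted p = 0.000418), with a log2 fold of -1.49 in 4T1 and of 0.55, which did not pass its own test, in B16F10. It kept its call under all 14 alternatives, from -2.28 to -2.02. Depth moved with the groups in both lineages, and its part was not tested. The 4T1 libraries held 15572 to 44625 reads and the Eph4-ev libraries 50648 to 56649, and B16F10 held 16697 to 20011 and Melan-a 25072 to 33557.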

How the results depend on the processing

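Read numbers were low, each kind of cell is 1 line per lineage, and leaving out 1 library can end a call. Asph in 4T1 against Eph4-ev kept its call under all 14 alternatives (log2 fold -1.68 to -1.35, adjusted p up to 0.0442). The cause of the changes below was not tested. Over the fits that leave out 1 library, the log2 fold in 4T1 ran from -5.58 to -3.10 for Hipk2, from -0.12 to 0.11 for Hipk3 and from 2.12 to 2.61 for Nrip1. Without Eph4-ev replicate 2, Hipk2 (-3.87, adjusted p = 0.0687) and Nrip1 (2.31, 0.0837) lost their calls, as did Nrip1 without Eph4-ev replicate 3 (2.29, 0.0512). With no filter on low counts, Hipk3 stood at -0.13. The number of the 4 hosts called ran from 1 to 3 and that of their circRNAs from 1 to 4, each lowest without Eph4-ev replicate 2. Without that library the calls over all circRNAs fell from 325 to 72 and over all hosts from 265 to 73. In the melanocyte lineage they ran from 42 to 145 and from 32 to 123, the highest without Melan-a replicate 2, and the members called stayed at 0. The difference between lineages ran from -4.80 to -2.34 for Hipk2 and from -0.17 to 4.38 for Nrip1. The share of Asph reads on exons 2-3, 4T1 minus Eph4-ev, changed from -2.02 to -11.3 percentage points with only circRNAs read in both lines, a restriction that removes circRNAs with 0 reads in 4T1 and so can only raise the Eph4-ev share. Scaling by total reads alone moved the median log2 fold in 4T1 from -0.22 to -0.01 over all circRNAs and from -0.09 to 0.04 over all hosts, and in B16F10 from -0.00 to 0.11 over all hosts. It moved the calls over all hosts from 104 higher and 161 lower to 119 and 139 in 4T1, and from 25 and 39 to 36 and 32 in B16F10. Libraries with the same replicate number did not deviate together (r -0.04 to 0.02 in the mammary and -0.09 to -0.01 in the melanocyte lineage), and the numbers are taken as names. With a replicate block, 3 hosts and 4 circRNAs were called as before (Nrip1 adjusted p = 0.0169) and 217 hosts over all. Host sums without their most read circRNA gave no value for Hipk2 and Nrip1, and none passing the filter for Hipk3.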
